A study of Homo sapiens with 45 samples.

Results

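MYC and the MAX network were examined in HCT116 cells, a human colon cancer line, after knockdown of HNRNPK, the gene of an RNA- and DNA-binding protein known to act on MYC transcription and translation. The network was taken as 10 genes chosen by symbol: MYC, MYCN, MYCL, MAX, MXD1, MXD3, MXD4, MXI1, MNT and MLX. All 10 were among the 28278 names of the count table of 8 libraries, and 9 of them had enough counts to be tested. Cells received a nontargeting or an HNRNPK siRNA at 25 nM and were collected after 72 hours.

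The knockdown comparison used 4 siNTC5 control libraries and 4 siHNRNPK libraries. RNA of all 8 was purified with the Maxwell instrument, and replicates 1 and 2 of each group were made with the TruSeq stranded mRNA kit and replicates 3 and 4 with the Stranded mRNA, Ligation kit. A further control group, 2 Scramble libraries numbered 5 and 6, received nontargeting siRNA at the same dose and time, but its RNA was purified with the RNeasy kit and counted in separate tables. The labels do not say whether replicates were separate cultures, so p-values measure the spread between these libraries, which may be technical. No genotype other than that of the line is given, and all groups went through the same transfection.

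Proteins of the network share a basic helix-loop-helix leucine zipper, the fold by which they pair and grip DNA. MYC, MYCN and MYCL pair with MAX and bind E-boxes, short palindromes of which CACGTG is the standard form, to activate transcription. MXD proteins and MNT pair with MAX on the same letters and recruit SIN3 and histone deacetylases, while MLX pairs with MXD1, MXD4, MNT and with the glucose-sensing partners MLXIP (MondoA) and MLXIPL (ChREBP). In colon cancer MYC is a known target of the Wnt pathway.

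Library totals ran from 12107280 to 23633851 counts in the 8 libraries and were 59209169 and 55007171 in Scramble. HNRNPK itself fell from 884 ± 78.0 to 199 ± 45.3 CPM, counts scaled to a common library total (SD, n = 4 in each group). This was 22.4% of the control level; the fitted change was -2.17 on the log2 scale (SE 0.06), with an adjusted p of 7.29e-15 by the quasi-likelihood test of edgeR. Values after ± are SE for log2 changes and SD for CPM throughout. Of 11 colon epithelial markers, 5 passed the expression filter (EPCAM, CDH1, KRT8, KRT18 and CDX2) and 6, among them KRT20, VIL1 and MUC2, were at most 2.34 CPM in any library. Of 10 markers of other cell types, 3 passed (COL1A1, VWF and DES), with COL1A1 between 31.5 and 121 CPM, while PTPRC and PECAM1 stayed at or under 0.42 CPM; their part in the results was not tested. Replicates 1 and 2 of siNTC5 differed more than the other same-kit pairs, with a chi-square per degree of freedom of 8.035 against 2.225 to 2.475. This value does not say which of the pair stands apart, so results for several members are also given without 1 or the other.

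Most of the network differed after HNRNPK knockdown, in both directions. At an adjusted p under 0.05, 8 of the 9 tested members were called, against 71.5% of all 13933 tested genes. MYC and MAX were higher and MYCL, MXI1, MXD3, MXD4, MNT and MLX were lower, while MXD1 did not pass the test. Over all tested genes, 35.5% were called higher and 36.1% lower, and the median log2 fold change was -0.004 over all genes and -0.43 over the 9 members. The median absolute change was 0.43 in the members and 0.41 over all genes, so the members moved about as far as a typical tested gene. In bulk RNA, fewer cells expressing a gene and less RNA per cell cannot be told apart.

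**Figure D1:**
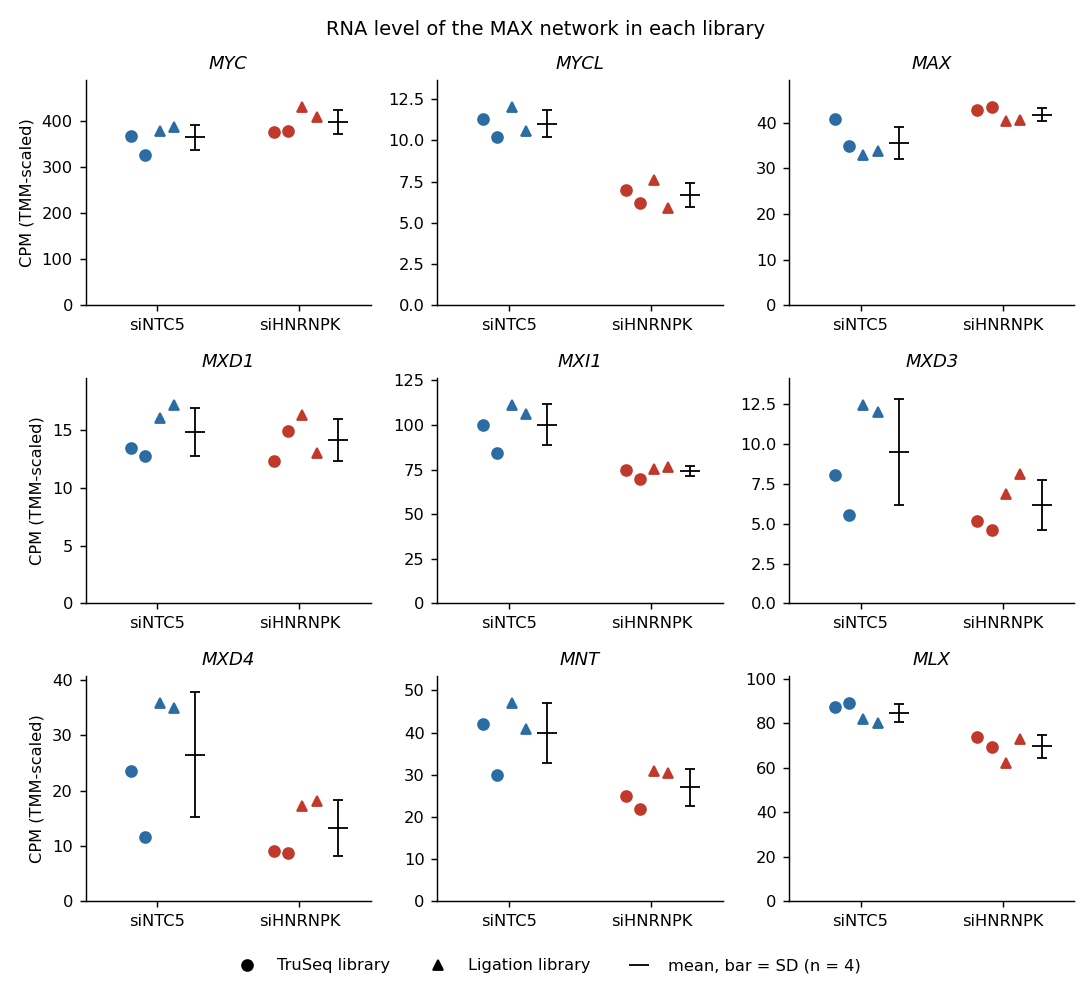
Level of each tested member in CPM (y axis, from 0) in the 4 siNTC5 and 4 siHNRNPK libraries (x axis); circles are TruSeq and triangles Ligation libraries, and the line with its bar is the mean with its SD. MYCL, MXI1 and MLX show no overlap between groups, and MXD4 ran from 8.69 to 18.1 CPM after knockdown against 11.7 to 35.8 CPM in controls, with the Ligation libraries above the TruSeq libraries in both groups.

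Among the activators, MYC was measured at 367, 326, 379 and 387 CPM in siNTC5 replicates 1 to 4 and at 375, 379, 429 and 408 CPM in siHNRNPK replicates 1 to 4. The groups overlapped, because the highest controls came from the Ligation kit and the lowest knockdown libraries from the TruSeq kit, but within each kit both knockdown libraries lay above both controls. The share of all genes that separate within each kit was not computed, here or for the members below. The fitted rise was 0.13 ± 0.04 on the log2 scale, or 1.09-fold (95% interval 0.04 to 0.22, adjusted p = 0.0134 in edgeR's quasi-likelihood test). Without siNTC5 replicate 1 the rise was 0.16. The call was lost without siHNRNPK replicate 3 (0.10, adjusted p = 0.0606) and stood at an adjusted p of 0.0497 without siNTC5 replicate 2 (0.09). It was also lost with unscaled library totals (0.09), with no filter (0.09), with no kit term (0.13) and in the TruSeq libraries alone (0.13), and it held under 14 of 20 alternatives. MYC protein was not analysed here.

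MYCL, the family member first found in lung cancer, fell. It was measured at 11.3, 10.2, 12.0 and 10.6 CPM in siNTC5 and at 6.99, 6.24, 7.59 and 5.93 CPM in siHNRNPK. Every knockdown library lay below every control library; this held for 3 members (MYCL, MXI1 and MLX) and for 28.0% of all tested genes. The log2 fold change was -0.71 ± 0.12 (adjusted p = 2.02e-05, edgeR), which left 60.7% of the control level. RefSeq places the antisense gene MYCL-AS1 over MYCL, and the strand setting of the counting is not given in the sources used here, so reads of the pair cannot be told apart.

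MYCN, best known from neuroblastoma, is listed at 0 in all 10 RNA libraries and was not tested. With 3 counts as the limit that a count of 0 allows, this corresponds to 0.127 to 0.248 CPM in the 8 libraries and to 0.0507 and 0.0545 CPM in Scramble, for counting error only. RefSeq places MYCNOS over part of MYCN, so the MYCN count may lose reads where these genes overlap. A listed 0 need not mean no RNA in these tables. EIF4A1, a translation initiation helicase that all cells use, is also listed at 0 in all 10 libraries, and the chromatin remodelling gene SMARCB1 reached at most 0.0658 CPM in the 8 libraries against 110 and 113 CPM in Scramble. Both genes were singled out after their values were seen.

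MAX, the shared partner of the activators and repressors, rose. It was measured at 40.7, 34.8, 32.8 and 33.8 CPM in siNTC5 and at 42.7, 43.3, 40.4 and 40.5 CPM in siHNRNPK. The knockdown libraries kept to a narrow range, and siNTC5 replicate 1 alone among the controls reached it. The log2 fold change was 0.23 ± 0.07, or 1.18-fold (adjusted p = 0.00402, edgeR). It was 0.19 without siNTC5 replicate 2 (adjusted p = 0.0169, edgeR) and 0.29 without siNTC5 replicate 1. In the TruSeq libraries alone the value of 0.20 did not pass (adjusted p = 0.109). RefSeq places FNTB, CHURC1-FNTB, MIR4706 and MAX-AS1 over parts of MAX, so its count may include or lose reads of these genes.

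hnRNP K is known to bind the C-rich strand of the CT element in the MYC promoter. Promoter sequences were taken from RefSeq (GRCh38.p14) as 250 bases before to 50 bases after each start site, and 9 of the 10 members had an entry there, MYC not being one of them. The stretch CCCTCCCC, used here as a core of the CT element and searched on both strands, was found for MAX at 2 start sites, for MYCN, for the third start site of MXI1 and for MLX. Of 35116 RefSeq promoters of that length 13.6% hold it, and 15.6% of genes have at least 1 such promoter. The MAX and MYCN stretches are shown because they come from the gene of the shared partner and from the MYC relative listed at 0, with the matches in capitals and each read 5′ to 3′ along its gene:
MAX, chr14:65102337-65102443, minus strand: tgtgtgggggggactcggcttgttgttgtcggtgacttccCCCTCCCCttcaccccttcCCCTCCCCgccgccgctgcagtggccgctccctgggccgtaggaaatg
MYCN, chr2:15940415-15940502, plus strand: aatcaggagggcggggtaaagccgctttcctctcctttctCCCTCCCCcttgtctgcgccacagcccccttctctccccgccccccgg
The matches begin 120 and 101 bases before the first MAX start site and 95 bases before that of MYCN. MAX rose, MLX and MXI1 fell and MYCN is listed at 0, so members with the stretch did not share a direction. A match in this window describes letters and is not a binding site.

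The MXD repressors, which replace MYC on MAX in cells that stop dividing, mostly fell. MXI1, also called MXD2, was measured at 100, 84.2, 111 and 106 CPM in siNTC5 and at 74.9, 70, 75.6 and 76.5 CPM in siHNRNPK. All knockdown libraries lay below all controls, and they spread less (SD 2.88 against 11.5 CPM). MXI1 fell by a log2 fold change of -0.43 ± 0.06 (adjusted p = 3.65e-06, edgeR). It was at -0.5 without siNTC5 replicate 2 and -0.39 without siNTC5 replicate 1.

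MXD4 had the largest change of the members in this comparison. It was measured at 23.6, 11.7, 35.8 and 35.0 CPM in siNTC5 and at 9.16, 8.69, 17.2 and 18.1 CPM in siHNRNPK. The Ligation libraries were above the TruSeq libraries in both groups, siNTC5 replicate 2 was well below the other controls, and the groups separated within each kit but not across kits. The log2 fold change was -0.98 ± 0.15, which is 0.51-fold (adjusted p = 8.78e-06, edgeR), and it was -1.15 without siNTC5 replicate 2 and -0.80 without siNTC5 replicate 1.

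MXD3, a repressor linked to S phase, was measured at 8.06, 5.51, 12.4 and 12.0 CPM in siNTC5 and at 5.14, 4.60, 6.83 and 8.08 CPM in siHNRNPK. Kits again set the order within a group, and within each kit the knockdown libraries were the lower. The fitted log2 fold change was -0.59 ± 0.14 (adjusted p = 0.000761, edgeR). It was -0.72 without siNTC5 replicate 2 and -0.52 without siNTC5 replicate 1, and in the TruSeq libraries alone it was -0.45 and did not pass (adjusted p = 0.115). RefSeq places PRELID1 over part of MXD3.

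MXD1, the founding MXD gene, did not pass the test. It was measured at 13.4, 12.7, 16.0 and 17.1 CPM in siNTC5 and at 12.3, 14.9, 16.3 and 13.0 CPM in siHNRNPK. The groups overlapped in both kits. The log2 difference was -0.06 ± 0.10 with a 95% interval of -0.27 to 0.15 (adjusted p = 0.613, edgeR), so changes within that interval are not excluded. RefSeq places ASPRV1 over part of MXD1.

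MNT, a widely expressed MAX partner that opposes MYC, was measured at 42.0, 29.9, 46.9 and 40.9 CPM in siNTC5 and at 24.9, 21.8, 30.8 and 30.5 CPM in siHNRNPK. The groups met only at siNTC5 replicate 2, which lay just under the 2 Ligation knockdown libraries. MNT thus fell, by a log2 fold change of -0.56 ± 0.09 (adjusted p = 2.8e-05, edgeR), and was at -0.65 without siNTC5 replicate 2 and -0.46 without siNTC5 replicate 1.

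MLX, the hub of the parallel branch, was measured at 87.1, 88.9, 82.1 and 80.0 CPM in siNTC5 and at 73.7, 69.1, 62.3 and 73.1 CPM in siHNRNPK. All knockdown libraries lay below all controls. The log2 fold change of -0.28 ± 0.05 was small but well resolved (adjusted p = 0.000159, edgeR). RefSeq places PSMC3IP over part of MLX.

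**Figure D2:**
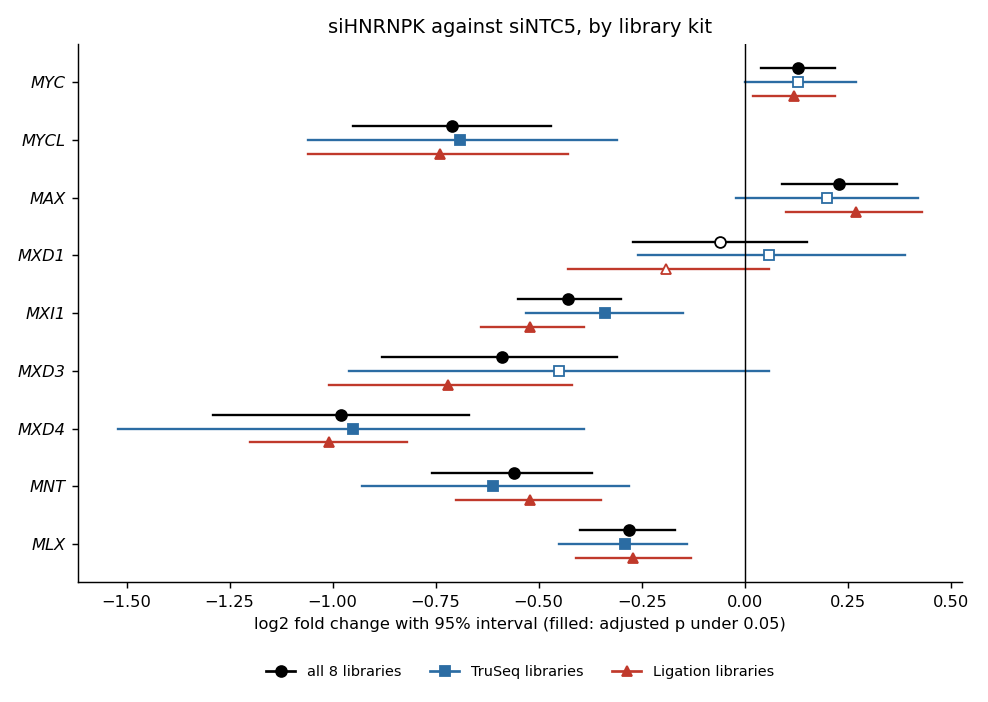
Log2 fold change of siHNRNPK against siNTC5 (x axis) for each tested member (y axis) in all 8 libraries, in the TruSeq libraries alone and in the Ligation libraries alone; lines are 95% intervals and filled points have an adjusted p under 0.05. The intervals of the kits overlap for each member, and MYC, MAX and MXD3 are called in the Ligation libraries and not in the TruSeq libraries.

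The kits were compared because they gave different levels for part of the network. Ligation libraries were higher than TruSeq libraries for MXD4 (1.01 ± 0.15 on the log2 scale), MXD3 (0.76 ± 0.14), MNT (0.34 ± 0.09) and MYC (0.15 ± 0.04), which makes 4 of 9 members called, all higher, against 28.5% of all genes called and 15.2% higher. The effect of knockdown itself was not called different between kits for any of the 9 members (0 at an adjusted p under 0.05, edgeR), as for all but 0.129% of genes. The smallest unadjusted p of the members was 0.154, for MXI1, so 0 were under 0.05 unadjusted, against 11.8% of genes. In the TruSeq libraries alone 5 of 9 members were called, against 57.8% of genes, and in the Ligation libraries alone 8 of 9, against 68.1%.

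Of the repressors and MLX, 3 promoters hold CACGTG, the standard form of the E-box. The 6 letters read the same on both strands and were found for MXD4, MNT and MLX, which all fell, and not in the promoters of the other 6 members with an entry. Of the 35116 RefSeq promoters 7.26% hold it, and 8.77% of genes have at least 1 such promoter. The stretches are printed because they carry the network's own recognition letters, with the E-box in capitals, 5′ to 3′ along the gene (GRCh38.p14):
MXD4, chr4:2262302-2262359, minus strand: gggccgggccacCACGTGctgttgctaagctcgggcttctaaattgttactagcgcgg
MNT, chr17:2401208-2401293, minus strand: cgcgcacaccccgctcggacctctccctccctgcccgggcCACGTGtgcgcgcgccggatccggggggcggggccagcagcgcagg
MLX, chr17:42567010-42567095, plus strand: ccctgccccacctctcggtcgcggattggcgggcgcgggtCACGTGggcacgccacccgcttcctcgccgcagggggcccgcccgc
The E-box begins 238 bases before the start site of MXD4, 193 before that of MNT and 50 before that of MLX. MYCL, MXI1 and MXD3 fell without the letters in this window. Here too a match describes letters and is not a binding site, and binding by the network was not tested.

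The direction of MYC depended on the control group. In Scramble replicates 5 and 6 MYC was at 524 and 521 CPM, above every siNTC5 and every siHNRNPK library, when all 10 libraries were scaled together; 38.0% of genes were above every siNTC5 library in Scramble. Against siNTC5, Scramble was higher by 0.59 ± 0.05 on the log2 scale (adjusted p = 1.24e-08, edgeR). Against Scramble, siHNRNPK was lower, at -0.47 ± 0.05 on the log2 scale (adjusted p = 1.6e-07). These comparisons share libraries with the knockdown comparison and are set side by side only.

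Scramble was higher than siNTC5 in 7 of 9 members and lower in 0, where 69.3% of 14642 tested genes were called and 37.5% were higher. MXD4 stood at 56.3 and 50.8 CPM in Scramble, above every other library, which is 1.62 ± 0.16 on the log2 scale (adjusted p = 5.99e-08, edgeR). This difference was 1.96 without siNTC5 replicate 1 and 1.31 without siNTC5 replicate 2. MYCL stood at 22.3 and 22.1 CPM (1.05 ± 0.11), and MXD1, which the knockdown comparison had not called, at 24.9 and 26.3 CPM (0.92 ± 0.11). Both Scramble libraries were above all 8 others for each of these 3 genes, as also for MYC, MXI1, MNT and MLX. The share of all genes above all 8 was not computed, and 38.0% were above every siNTC5 library. MXI1 differed by 0.63 ± 0.08 and MNT by 0.58 ± 0.11, the latter not called with no kit term (0.40, adjusted p = 0.0515). MNT was at 0.75 without siNTC5 replicate 1 and 0.43 without siNTC5 replicate 2.

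MAX differed by 0.20 ± 0.08 between Scramble and siNTC5 (adjusted p = 0.0311, edgeR), a call lost under 7 of 13 alternatives, among them unscaled totals, which turned it to -0.04. MLX was at 0.10 ± 0.06 (adjusted p = 0.194) and turned to -0.04 with upper-quartile factors. MXD3 was at 5.91 and 6.11 CPM in Scramble, inside the range of siNTC5 (-0.21 ± 0.16, adjusted p = 0.237); without siNTC5 replicate 2 it was called lower (-0.42, adjusted p = 0.0175). The scaling moved the median of all genes from 0.04 to -0.10 with upper-quartile factors and to -0.20 with unscaled totals. Relative to that median, MAX was at 0.16 and MYC between 0.55 and 0.56 under all 4 scalings. A change of scaling moves all genes by about the same amount, so these values were bound to stay alike and do not measure stability.

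Against Scramble, siHNRNPK was lower in 8 of 9 members and higher in 0, where 81.2% of genes were called and 42.4% were lower. MXD4 showed the largest value among them, -2.61 ± 0.17 (adjusted p = 1.09e-10, edgeR), followed by MYCL at -1.76 ± 0.11. MNT was at -1.15 ± 0.11, MXI1 at -1.06 ± 0.08 and MXD1 at -0.99 ± 0.11. MLX was at -0.38 ± 0.07, and MXD3 at -0.39 ± 0.17 (adjusted p = 0.0385) lost its call under 9 of 13 alternatives, among them no kit term, which turned it to 0.02. MAX at 0.03 ± 0.08 was not called (adjusted p = 0.759), but it was called higher with upper-quartile factors (0.21, adjusted p = 0.0203) and with unscaled totals (0.23, adjusted p = 0.0132).

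**Figure D3:**
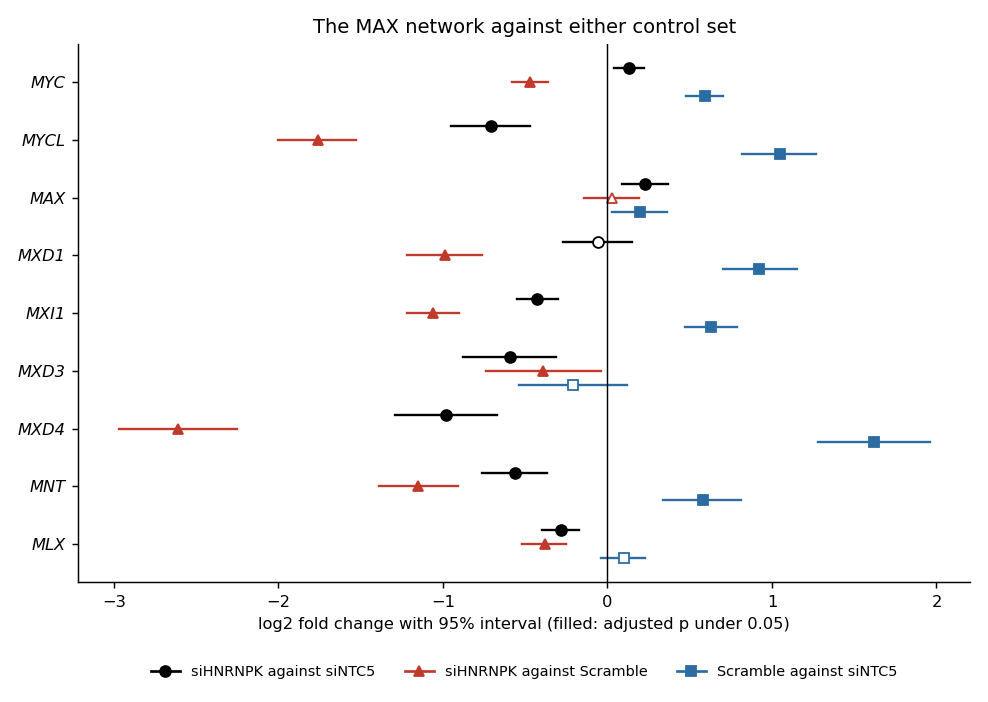
Log2 fold change (x axis) of each tested member (y axis) for siHNRNPK against siNTC5, siHNRNPK against Scramble and Scramble against siNTC5; lines are 95% intervals and filled points have an adjusted p under 0.05. MYC lies at 0.13 against siNTC5 and at -0.47 against Scramble, while MYCL, MXI1, MXD3, MXD4, MNT and MLX lie below 0 against both control groups.

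Scramble differs from siNTC5 in purification, count table and depth at once, and these cannot be told apart from the control siRNA. The tables also differ in which names hold counts: of the 25527 shared names, 344 had a mean above 10 CPM in Scramble and under 1 CPM in the 8 libraries, and 12 the reverse. None of the 9 tested members was near 0 in either kind of table, but a smaller difference in counting would not be seen this way.

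The partners of MLX did not move together. Of 11 genes of its branch and the larger network, 10 were tested and 8 called, 4 higher and 4 lower, with a median log2 fold change of 0.03. These are 80.0% of the list, against 71.5% of all tested genes. MLXIPL, the sugar-responsive partner of MLX, was at 64.0, 59.7, 75.3 and 79.6 CPM in siNTC5 and at 31.2, 28.1, 35.2 and 37.7 CPM in siHNRNPK, so that every knockdown library lay below every siNTC5 library (-1.07 ± 0.06, adjusted p = 1.85e-11, edgeR). Scramble was low as well, at 37.9 and 33.8 CPM (-0.79 against siNTC5), and siHNRNPK differed from it by -0.29 (adjusted p = 0.00286). TFEB, a lysosomal regulator, fell by 1.0 ± 0.16, and its relative MITF rose by 1.07 ± 0.16 from 2.41 ± 0.597 CPM; against Scramble they were at -1.37 and 1.02. MGA, a MAX partner in a variant polycomb complex, rose from 93.0 ± 4.79 to 150 ± 6.73 CPM (0.69 ± 0.04, adjusted p = 5.99e-11, n = 4 in each group, edgeR).

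MLXIP, which joins MLX on glucose-responsive genes, was at 41.8 ± 0.73 CPM in siNTC5 and 38.8 ± 1.65 CPM in siHNRNPK and did not pass the test (log2 difference -0.11 ± 0.06, adjusted p = 0.114 in edgeR), though every knockdown library lay below every control. Between the control groups it differed, with 170 and 153 CPM in Scramble (1.96 ± 0.07 against siNTC5, adjusted p = 9.19e-15). ARRDC4, a known target of MLXIP and MLX, was at 31.5 ± 9.65 CPM in siNTC5 and 34.3 ± 1.11 CPM in siHNRNPK (adjusted p = 0.151) and at 265 and 292 CPM in Scramble (3.40 ± 0.12, adjusted p = 1.95e-14). TXNIP, also on this list, had too few counts to be tested, with at most 0.0743 CPM in the 8 libraries and 0.0801 CPM in Scramble. As for MYCN, a value near 0 need not mean no RNA in these tables. MGA, MLXIP, ARRDC4 and TXNIP were chosen after their values were seen.

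Corepressors used by the MXD proteins and MNT were mixed. All 15 listed genes were tested and 14 called, 6 higher and 8 lower, with a median of -0.12, which is 93.3% called against 71.5% of all tested genes. The deacetylase gene HDAC1 fell by 0.65 ± 0.04 from 309 ± 14.6 to 198 ± 9.69 CPM with separate groups, and was at -0.70 against Scramble.

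Coactivators and partners of MYC moved both ways. Of 18 listed genes 17 were tested and 14 called, 10 higher and 4 lower, with a median of 0.26. This is 82.4% called and 58.8% higher, against 71.5% and 35.5% of all tested genes. RUVBL1, an ATPase of the TIP60 complex, fell by 0.69 ± 0.05 from 160 ± 12.4 to 99.5 ± 6.11 CPM, and was at -0.29 against Scramble (adjusted p = 0.000111, edgeR). Of 20 genes of MYC protein turnover all were tested and 13 called, 4 higher and 9 lower, with a median of -0.07, so that 65.0% were called against 71.5% of all tested genes. STUB1, a ubiquitin ligase gene, fell by 1.32 ± 0.10, and was at -1.36 against Scramble.

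Factors known to act on MYC DNA or RNA numbered 31, of which 30 were tested and 24 called, 14 higher and 10 lower, HNRNPK included, or 80.0% called against 71.5% of all tested genes. IGF2BP3, an RNA-binding protein gene of the family that protects MYC mRNA, fell by 1.45 ± 0.06 from 230 ± 25.4 to 83.6 ± 4.61 CPM, while IGF2BP1 rose by 1.19 ± 0.25 from a low 1.05 ± 0.297 CPM. Scramble held more IGF2BP3, at 428 and 480 CPM, and siHNRNPK differed from Scramble by -2.49 in IGF2BP3 and 1.37 in IGF2BP1. Of 10 listed long noncoding neighbours of MYC and its relatives, 4 were tested and all 4 called, 3 higher and 1 lower, where 71.5% of all tested genes were called. CCAT1, a colon cancer transcript, rose by 0.55 ± 0.11 and PVT1, named after its value was seen, by 0.50 ± 0.05, whereas CASC19 fell by 0.96 ± 0.25 with overlapping groups. CASC19 was lower still in Scramble, at 0.881 and 0.976 CPM, and siHNRNPK differed from it by 0.63, which did not pass (adjusted p = 0.0733, edgeR), while CCAT1 was at 0.49 against Scramble.

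Genes known as raised by MYC did not move one way. Of 58 listed names, 53 were tested and 44 called, 26 higher and 18 lower, with a median of 0.10. PHB1 and PHB are names of the same gene, which was tested as PHB. The shares were 83.0% called, 49.1% higher and 34.0% lower, against 71.5%, 35.5% and 36.1% of all tested genes. RRP12, a ribosome assembly gene, rose by 1.17 ± 0.06 and the transferrin receptor gene TFRC by 1.05 ± 0.06, whereas PPAN, also of ribosome assembly, fell by 1.37 ± 0.12 and the replication helicase gene MCM5 fell by 1.26 ± 0.05. Set against Scramble, the differences were smaller, at 0.55 for RRP12, 0.66 for TFRC, -0.79 for PPAN and -0.26 for MCM5, all called. MCM5 was at 115 and 114 CPM in Scramble, which was -1.01 against siNTC5.

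Genes known as lowered by MYC were mixed as well. Of 24 listed, 20 were tested and 15 called, 6 higher and 9 lower, with a median of -0.16, so that 75.0% were called against 71.5% of all tested genes. THBS1, which encodes a matrix glycoprotein, rose from 13.0 ± 2.61 to 94.3 ± 5.2 CPM (2.85 ± 0.10), and the stress gene GADD45B rose by 1.36 ± 0.09. The integrin gene ITGB4 fell by 2.37 ± 0.09, the stress-responsive gene NDRG1 fell by 2.0 ± 0.10, the differentiation factor gene CEBPA fell by 1.10 ± 0.16 and the cell cycle inhibitor gene CDKN2C fell by 1.03 ± 0.15. Scramble and siNTC5 differed in several of these too: NDRG1 was at 1561 and 1755 CPM in Scramble against 704 CPM in siNTC5, and GADD45B at 34.3 and 37.8 against 13.8 CPM. The direction of GADD45B thus turned with the control, to -0.41 for siHNRNPK against Scramble (adjusted p = 0.00107, edgeR). CDKN2C was at 3.14 and 3.56 CPM in Scramble, and siHNRNPK did not pass against it (-0.07, adjusted p = 0.724). The values against Scramble were 3.63 for THBS1, -4.04 for ITGB4, -3.43 for NDRG1 and -1.91 for CEBPA.

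**Figure D4:**
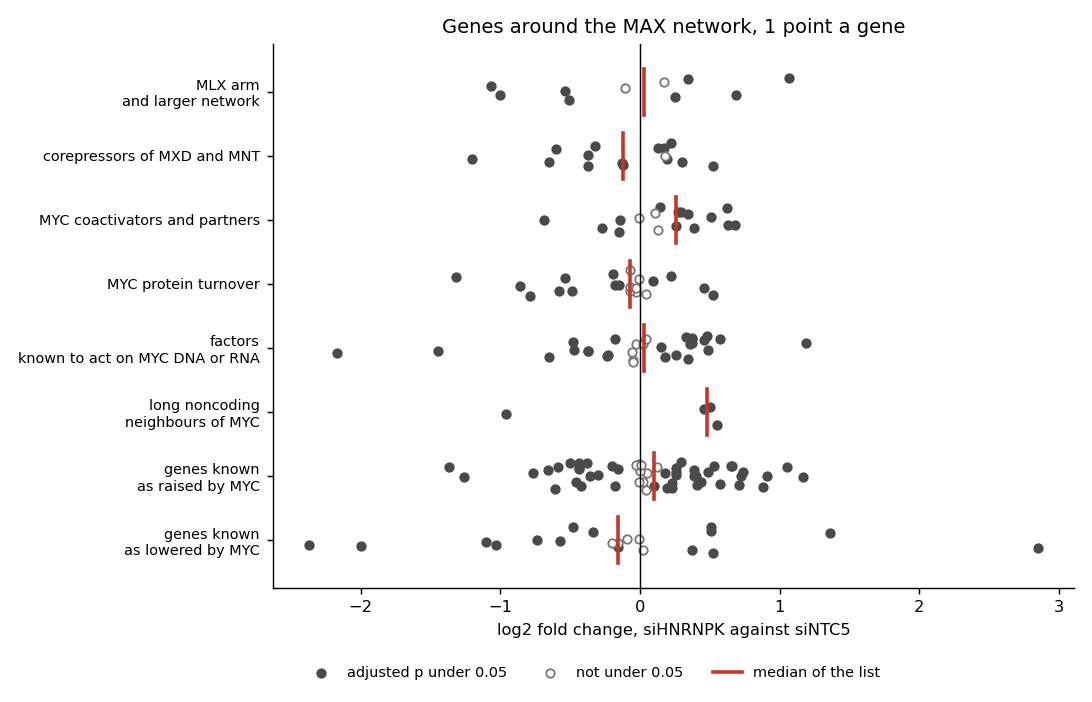
Log2 fold change of siHNRNPK against siNTC5 (x axis) for every tested gene of the 8 lists around the network (y axis, points spread vertically for legibility); filled points have an adjusted p under 0.05 and the vertical bars are list medians. List medians run from -0.16 for genes known as lowered by MYC to 0.48 for the long noncoding neighbours, of which 4 were tested.

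By likeness of pattern, the genes closest to MYC over the 8 libraries were ARID4A (Pearson r = 0.986 of log2 CPM), STARD3 (0.969), COQ8A (0.968), FAM20B (0.967) and PGM3 (0.964), among 9998 genes with an average log2 CPM of at least 3. The most opposite were RCBTB1 (-0.984), TATDN2 (-0.978), RFC2 (-0.978), HNRNPF (-0.977) and SMYD4 (-0.976). The libraries share kit and treatment, so these values describe the ordering of 8 points. Among the members, MXD1 (0.480), MAX (0.314) and MXD4 (0.227) lay on the positive side. MLX (-0.803), MYCL (-0.455) and MXI1 (-0.212) lay on the negative side, and MNT was at -0.003.

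Chromatin around the network was read from 7 deposited lists of domains for lamin B1 (LMNB1), a protein of the nuclear lamina, and for the histone marks H3K9me2, H3K9me3 and H3K27me3, all linked to silent chromatin. There is 1 list per antibody and siRNA, with no replicate and none used here for H3K9me2 after knockdown, so no difference between lists was tested. MYC, MYCL, MAX, MXD1, MXI1, MXD3, MNT and MLX lay in no domain of any list, with gene positions from RefSeq (GRCh38.p14) and domains on hg38. For MYC (chr8:127735434-127742951) the nearest domain of all lists was an H3K9me3 domain 360 kb away in control and 340 kb away after knockdown. Of 13772 tested genes with a position, 3.00% had at least 50% of the gene body in a control lamin B1 domain and 9.95% in a control H3K27me3 domain. These shares cover only genes that passed the expression filter, which MYCN did not. Shares over genes below the filter were not computed.

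MYCN (chr2:15940550-15947004), the member listed at 0, was the one inside lamin B1 and H3K27me3 domains in both conditions. Its whole body lay in a lamin B1 domain of 1500 kb in control (chr2:15930001-17430000) and of 1590 kb after knockdown (chr2:15790001-17380000). The authors' score of that domain was 1.54 in control, above 753 of 880 domains of its list, and 0.75 after knockdown, above 362 of 730. The gene also lay in an H3K27me3 domain with the same edges in both lists (chr2:15625001-17440000, 1815 kb), scored 1.76 and 1.84. Scores are compared within a list only.

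MXD4 (chr4:2247432-2262109) was in a lamin B1 domain after knockdown and not in control. Of the 13772 tested genes with a position, 2.56% had at least 50% of the gene body in a lamin B1 domain after knockdown. The share of genes in such a domain only after knockdown was not computed. In control the nearest lamin B1 domain was 1812 kb away, and after knockdown the whole gene lay in a domain of 185 kb (chr4:2245001-2430000). Its edge was close to the gene, and 58.5% of the body extended by 50 kb on both sides was covered. The domain scored 0.61, above 252 of 730 domains of its list, where the lowest score was 0.48 and the median 0.76. ZFYVE28, the other gene wholly within it that was tested, did not pass the test for RNA (-0.06 ± 0.08, adjusted p = 0.524, edgeR), while MXD4 RNA fell. The nearest H3K9me3 domain lay 732 kb from MXD4 in control and 72.4 kb after knockdown, and the nearest H3K27me3 domain 102 and 597 kb.

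**Figure D5:**
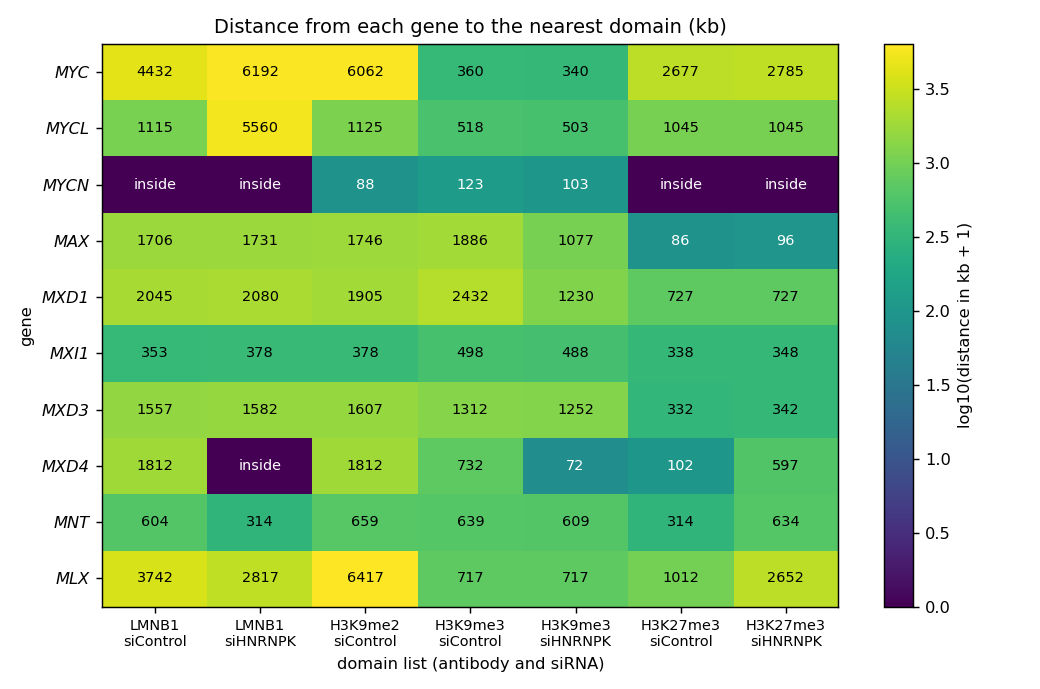
Distance in kb from each member's gene body (y axis) to the nearest domain of each list (x axis), with the colour on a log10 scale of distance plus 1 and "inside" for a gene within a domain. MYCN is inside lamin B1 and H3K27me3 domains of both siRNAs, MXD4 is inside a lamin B1 domain after HNRNPK siRNA and 1812 kb from one in control, and the other 8 members are outside all 7 lists.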

How the data were processed

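The authors deposited raw counts per gene symbol for 10 RNA libraries, in 1 table of 8 libraries and 2 tables of Scramble controls, and a score per domain in 7 ChIP domain lists. Per the submitters' processing notes, the 8 libraries were processed with STAR 2.7.1a, featureCounts and Subread 2.0.6 on hg38, and the ChIP reads with bcl2fastq 2.20, fastp 0.23.2, Bowtie2 2.5.1 and deepTools 3.1.3 on hg38. For Scramble the notes name both hg19 and hg38. The annotation, the strand counted, the domain caller, the unit of the score and the pooling of ChIP replicates are not given in the sources used here.

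The counts went through edgeR 4.0.16 (R 4.3.3, limma 3.58.1): filterByExpr, TMM scaling, and the quasi-likelihood test with kit and treatment as terms over all genes. Benjamini-Hochberg adjustment covered all tested genes, at a threshold of 0.05. CPM are TMM-scaled over 8 libraries, or over 10 where Scramble is named; SE is the log2 fold change divided by the root of its F. Scramble comparisons used 1 fit of 10 libraries on shared names. On simulated counts for 13638 genes of the knockdown comparison, 100 of 100 genes changed by 1 and 100 of 100 changed by 2 on the log2 scale were recovered, with 7 false calls. The simulated counts had the same spread setting for all genes, no kit effect and no outlying library. They therefore do not measure how well smaller changes are found in these data.

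Same-numbered libraries deviated together, with correlations across genes of 0.1004, 0.4246, 0.3365 and 0.2653 for replicates 1 to 4, all over 0.1. With kit removed these were -0.1909, -0.1556, -0.2811 and -0.2515. Same-numbered libraries share a kit, and the main fit held a term for kit and none for pairs. Pairs by number were used only in the replicate block, 1 of the alternatives. Gene positions and promoters came from RefSeq GRCh38.p14, with 10 of 10 members and 13772 of 13933 tested genes placed. Members and gene lists were chosen with earlier results of these data known. Named genes are the members, HNRNPK, list genes called at 1 or more on the absolute log2 scale (at least 2 a list), and the 5 genes most and least like MYC; exceptions are marked where named, and 3 list genes that the rule names are not reported here. ChIP groups had 3 samples each, or 2 for H3K27me3, beside inputs. Replicates were compared with a chi-square test of their counts and none was a copy.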

Additional observations from a re-analysis of the deposited data

How the results depend on the processing

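Over the alternatives for siHNRNPK against siNTC5, MYCL, MXI1, MXD4, MNT and MLX kept their direction and their call in all 20. With the TruSeq libraries alone 5 members were called, against 8, and leaving out single libraries gave 7 to 8. MYC turned to -0.06 (adjusted p = 0.765) with the Scramble libraries added as controls, where MAX was lost (0.18, adjusted p = 0.0889), and was lost with no filter (adjusted p = 0.0682), with no kit term (adjusted p = 0.12), in the TruSeq libraries alone (adjusted p = 0.0906) and with unscaled totals (adjusted p = 0.0761). MXD3 was lost with no kit term (-0.62, adjusted p = 0.0608). MXD1, not called, turned to 0.06 in the TruSeq libraries alone and ran from -0.15 to 0.02 with single libraries left out. For Scramble against siNTC5, 6 or 7 members were called in every alternative that kept both Scramble libraries. All were higher, except that MXD3 was called lower with unscaled totals (-0.45, adjusted p = 0.017, edgeR) and without siNTC5 replicate 2 (-0.42). MAX turned to -0.04 with unscaled totals, and MLX to -0.04 with upper-quartile factors and -0.14 with unscaled totals. For siHNRNPK against Scramble, MAX was at -0.03 with no filter, -0.04 with no kit term and from -0.04 to 0.07 with single libraries left out, and was called higher with upper-quartile factors (0.21) and unscaled totals (0.23); MXD3 was at 0.02 with no kit term. Where 1 Scramble library was left out, the other was assumed to vary like the other groups. The replicate block gave 9872 called genes against 9968 and changed no member's call. With genes extended by 50 kb, the share covered was 62.9% for MYCN in control lamin B1 domains and 58.5% for MXD4 after knockdown. The causes were not tested. At these depths, MYCL and MXD3 rest on 62 to 245 counts per library.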
